A study of Mus musculus with 16 samples.

Results

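The genes described here are the nuclear-encoded subunits of respiratory complexes II, III and IV and of ATP synthase (complex V) in C2C12 cells with and without the miR-206 family. Members were taken by name from the protein-coding rows of the expression table: Sdha to Sdhd, all genes starting with Uqcr, Cyc1, Cox4 to Cox8, and Atp5. The rule found 48 of the 35275 genes in the table, 4 for complex II, 9 for complex III, 18 for complex IV and 17 for complex V. Of these, 45 had a mean of at least 0.5 FPKM (fragments divided by the gene's length in kilobases and by library depth) over all libraries and were tested. Cox4i2, Cox6b2 and Cox8c lay below that filter, at means of 0.116, 0.0432 and 0 FPKM, and the nearest member above it was Cox8b at 0.676 FPKM. Atp5sl, taken in by its name, encodes a protein now known as Dmac2, an assembly factor of complex I.

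C2C12 is an established mouse myoblast line whose cells fuse into myotubes when serum is lowered. All cells were labelled PAX7 NEG. Control cells were 2 wild-type populations, and knockout cells (tKO) were 2 clones without miR-206 and without both copies of miR-1a (miR-1a-1 and miR-1a-2). Each of these 4 lines was sampled as 2 cultures in growth medium with 20% fetal bovine serum (GM, labelled myoblasts) and as 2 cultures after 3 days in 2% horse serum (DM3, labelled myotubes). Each genotype at each stage was 1 of 4 groups of 4 libraries, so that every group held 2 lines, and each knockout line was a single clone. Poly(A) RNA was sequenced. The title of the series places it in work on this microRNA family in mitochondria and muscle.

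As background, the respiratory chain passes electrons from succinate (complex II) and NADH to ubiquinone, on to cytochrome c (complex III) and then to oxygen (complex IV). ATP synthase uses the proton gradient built on the way to make ATP. Nuclear genes encode all of complex II and most subunits of the others, and mitochondrial DNA encodes catalytic subunits of complexes III and IV and a few membrane subunits of complex V. Adult heart and skeletal muscle use their own isoforms of some complex IV subunits (Cox6a2, Cox7a1 and, in mice, Cox8b), and differentiating myoblasts raise their oxidative capacity.

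Depth was 22642563 to 56585952 fragments per library. Of 9 tested myotube markers, 8 rose from GM to DM3 in control cells and 9 in tKO cells, and 6 of 7 markers of proliferating myoblasts fell in both. The summed myotube markers were 11.4 to 77.0 FPKM in GM libraries. In DM3 they were 579 to 1029 FPKM in control and 254 to 1060 FPKM in tKO libraries, where culture 2 of both clones was lowest (254 and 330.5 FPKM, against 1060 and 1037 FPKM in culture 1). The 5 adipocyte markers summed to 0.412 to 11.6 FPKM, highest in tKO GM clone 1 culture 2. Fabp4, at 0.283 to 11.5 FPKM, was the 1 marker above the filter and passed in none of the comparisons, and Adipoq, Plin1, Cidec and Lep had group means of at most 0.0502 FPKM. The mature microRNAs are not measured in poly(A) gene tables. The transcript that hosts miR-206 had 0 to 4 fragments in control and 0 in tKO libraries in GM. In DM3 it had 59 to 608 in control and 14 to 152 in tKO libraries, with overlap.

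MicroRNAs lower the messages whose 3′ untranslated regions (UTRs) pair with their seed, bases 2 to 8. The seed of miR-206 is shown with its matches in the longest annotated 3′ UTR of each member. They are the places in those UTRs where the deleted microRNAs could pair directly. The mature strand (RefSeq, GRCm38.p6, chr1:20679055-20679076, plus strand) has its seed in capitals. The DNA of the Uqcrq site has in capitals the 7 bases that pair with the seed. The Uqcrc1 site is of another type (7mer-A1), whose capitals pair with bases 2 to 7 and end in an A, and it does not pair with base 8.
mmu-miR-206-3p: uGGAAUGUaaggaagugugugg
Uqcrq site: gaaagcatgagACATTCCcttgactgcta
Uqcrc1 site: gcatgcgacagCATTCCAgggcacacctc
The Uqcrq stretch is chr11:53428411-53428439 on the minus strand, and the Uqcrc1 stretch is chr9:108944823-108944851 on the plus strand (GRCm38, GENCODE M21). In the longest annotated 3′ UTR, 2 of 45 tested members (4.44%) held a match of either type, against 18.95% of 10806 tested genes. Member UTRs were shorter, with a median of 236 bases against 1192 bases over those genes. A match is a description of letters and no evidence of binding. The Uqcrc1 match is at bases 70 to 76 of a 246-base UTR, while the gene runs on to chr9:108949640. That UTR is the longest among the annotated transcripts, and whether these cells use it was not tested. Uqcrq, a small subunit of complex III, differed between tKO and control by 0.19 on the log2(FPKM + 1) scale in GM and by 0.09 in DM3 (adjusted p = 0.651 and 0.858). Uqcrc1, a core protein of complex III, differed by 0.17 and by -0.04 (adjusted p = 0.445 and 0.904).

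Most subunit messages were more abundant after 3 days of differentiation. In control cells 32 of 45 tested members rose and none fell, against 23.2% of all tested genes that rose and 38.3% that fell. The members' median change was 0.72 on the log2(FPKM + 1) scale, beside -0.15 over all tested genes, and 44 of 45 changes were positive. In 31 members all 4 DM3 libraries lay above all 4 GM libraries, as did 24.5% of all tested genes. Their summed level went from 5969 ± 607 FPKM in GM to 9610 ± 732 FPKM in DM3 (SD, n = 4). In bulk RNA, more differentiated cells and more message per cell cannot be told apart. Median-of-ratios scaling moved the median of all genes to 0.01, with 3648 genes higher and 3615 lower in place of 2743 and 4529. The members' median then lay 0.91 above that of all genes, in place of 0.87.

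In tKO cells 29 members rose and 2 fell, Sdhd and Atp5g3, against 24.9% of all tested genes that rose and 36.0% that fell. The median change was 0.39, beside -0.12 over all tested genes, and 26 members had all DM3 libraries above all GM libraries (19.3% of all tested genes). The 29 and the 26 both include Cox8b, which passed the filter only through tKO DM3, so its call there gives no support for a rise. Without clone 1 the count of members that rose was 18. With median-of-ratios scaling the split over all genes was 3638 higher and 3537 lower in place of 2951 and 4257, and the members' median stayed 0.55 above that of all genes in place of 0.52. The 2 comparisons share no libraries, and the size of their difference is given with the interaction test further on.

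**Figure D1:**
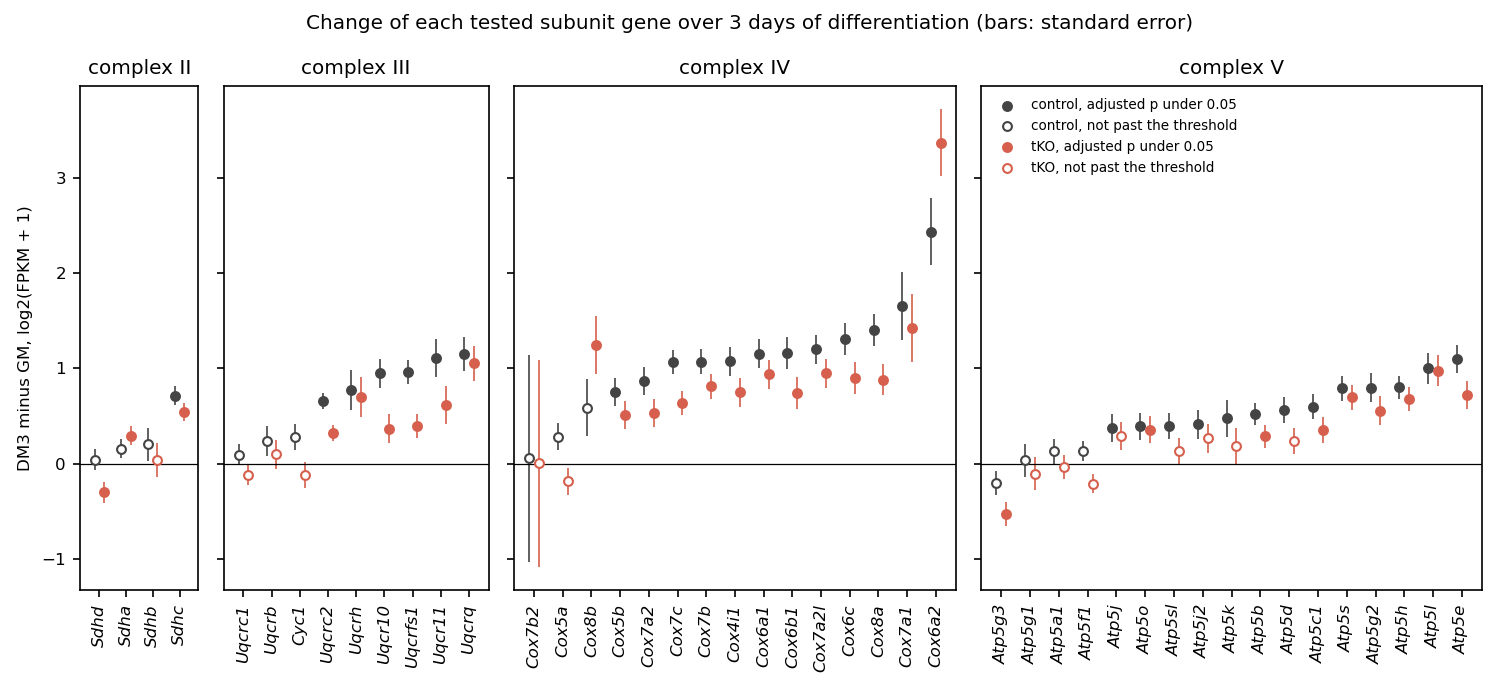
Change from GM to DM3 in log2(FPKM + 1) for each of the 45 tested members, by complex, in control (grey) and tKO cells (red). Bars are standard errors, and filled points have an adjusted p under 0.05. The filled tKO point of Cox8b comes from a test that is not independent of the filter. Cox6a2 has the largest rise in both genotypes (2.44 and 3.37), and Atp5g3 is the lowest point in both (-0.20 and -0.53).

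Complex II, which oxidises succinate, had the smallest median change of the 4 complexes. The shares of all tested genes that rose or fell, given above for each genotype, stand beside the counts for each complex. In control cells 1 of 4 members rose, with a median change of 0.18. This was Sdhc, a membrane anchor, at 33.2, 29.8, 34.8 and 28.4 FPKM in control GM and 47.9, 55.9, 52.6 and 52.9 FPKM in control DM3. The 2 groups did not overlap, and the change was 0.72 ± 0.10 (SE, adjusted p = 8.43e-06). Sdha, the flavoprotein that holds the succinate site, was the most abundant member of the complex (113 FPKM over all libraries). It changed by 0.16 in control cells (adjusted p = 0.187) and rose by 0.29 in tKO cells (adjusted p = 0.0195), a call lost without clone 1 (adjusted p = 0.12) or when only tKO libraries were fitted (adjusted p = 0.0794). Sdhb, the iron-sulfur subunit, changed by 0.20 in control and 0.04 in tKO cells (adjusted p = 0.329 and 0.868). Sdhd, the other membrane anchor, was at 78.9, 64.9, 82.5 and 63.1 FPKM in tKO GM and 64.0, 55.6, 55.5 and 58.2 FPKM in tKO DM3. It fell by 0.30 in tKO cells (adjusted p = 0.0258), with overlap between the groups. That call was lost with median-of-ratios scaling (-0.13, adjusted p = 0.358) and without either clone (adjusted p = 0.0716 and 0.172).

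Complex III passes electrons from ubiquinol to cytochrome c, and 6 of its 9 members rose in each genotype. The median changes were 0.77 in control and 0.37 in tKO cells. Uqcrfs1, the Rieske iron-sulfur protein, was at 54.3, 43.2, 58.3 and 46.9 FPKM in control GM and at 106.9, 100.7, 100.8 and 89.0 FPKM in control DM3. Every DM3 library lay above every GM library, with a change of 0.96 ± 0.13 (SE, adjusted p = 8.11e-06). In tKO cells it rose by 0.39 (adjusted p = 0.0136; 0.157 without clone 1). The small subunit Uqcrq had the largest rise of the complex in control cells, at 1.15 (adjusted p = 4.44e-05), and rose by 1.05 in tKO cells. Uqcr11, a small subunit, was the most abundant member (213 FPKM over all libraries) and rose by 1.11 and 0.61, the latter lost without clone 1 (adjusted p = 0.146). Uqcrc2, a core protein and the least abundant member (69.2 FPKM), rose by 0.65 and 0.32. The rise of Uqcr10 by 0.37 in tKO cells was a call lost without clone 1 or clone 2 (adjusted p = 0.366 and 0.0665). That call was also lost with no filter (adjusted p = 0.0797) and when only tKO libraries were fitted (adjusted p = 0.0750).

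The members of complex III that passed in neither genotype were Cyc1, the core protein Uqcrc1 and the small subunit Uqcrb. Cyc1, which encodes cytochrome c1, went from 196 ± 27.0 to 237 ± 25.5 FPKM in control cells (SD, n = 4), a change of 0.28 that did not pass the test (adjusted p = 0.0916). In tKO cells its change was -0.12 (adjusted p = 0.472), which became 0.05 with median-of-ratios scaling. Uqcrc1 changed by 0.09 and -0.12 (adjusted p = 0.475 and 0.378), and the latter was 0.05 with that scaling. Uqcrb changed by 0.24 and 0.10 (adjusted p = 0.191 and 0.603). No test compared the subunits with one another.

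Complex IV, cytochrome c oxidase, had the highest median change, 1.08 in control cells with 12 of 15 tested members higher and 0.81 in tKO cells with 13 of 15 higher. The 13 include Cox8b, whose call in tKO cells is not independent of the filter. Its summed level was 1596 ± 193 FPKM in control GM and 3413 ± 397 FPKM in control DM3 (SD, n = 4). Among subunits found in most tissues, Cox8a was at 214, 222, 265 and 213 FPKM in control GM and at 488.5, 722, 650 and 580.5 FPKM in control DM3. The 2 groups were far apart, and the change was 1.40 ± 0.17 (SE, adjusted p = 2.35e-06). Cox6c rose by 1.31 and Cox7a2l, a factor that joins complexes III and IV into supercomplexes, by 1.20 in control cells. In tKO cells these 3 genes rose by 0.88, 0.90 and 0.95. Cox6a1 was the most abundant member (514 FPKM over all libraries) and rose by 1.15 and 0.94. Cox4i1 rose by 1.08 and 0.75, and Cox6b1 by 1.16 and 0.74. Cox5a, which sits with Cox4 on the matrix side, changed by 0.28 and -0.19 (adjusted p = 0.0963 and 0.276). The counterparts Cox4i2 and Cox6b2, known from lung and testis, did not pass 0.362 and 0.275 FPKM in any library, and Cox8c, also known from testis, was listed at 0 in all 16.

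In complex V, 13 of 17 members rose in control cells and 8 in tKO cells, with median changes of 0.47 and 0.29. In the F1 head, Atp5b, the catalytic beta subunit, was the most abundant of all members (1437 FPKM over all libraries). It was at 1205, 1176, 1285 and 1085 FPKM in control GM and 1877, 1716, 1789 and 1458 FPKM in control DM3, with no overlap, and rose by 0.52 (adjusted p = 0.00105; 0.0919 without control line 1). In tKO cells its rise of 0.29 (adjusted p = 0.0438) was lost when only tKO libraries were fitted (adjusted p = 0.137). The call was also lost without clone 1 or clone 2 (adjusted p = 0.215 and 0.112), with line averages (0.0596) and with no filter (0.0515). Leaving out a single library of either genotype ended this call for Atp5b in several fits. Its partner Atp5a1, the alpha subunit, changed by 0.13 and -0.03 (adjusted p = 0.398 and 0.835). The central stalk genes Atp5c1 (gamma), Atp5d (delta) and Atp5e (epsilon) rose by 0.60, 0.57 and 1.10 in control cells, and Atp5e had the largest rise of the complex. Of the membrane and peripheral stalk genes, Atp5l (subunit g) rose by 1.00 and 0.98 and Atp5h (subunit d) by 0.80 and 0.68. Atp5f1 (subunit b) changed by 0.13 and -0.21 (adjusted p = 0.262 and 0.0779). Atp5sl, the least abundant member (1.92 FPKM), rose by 0.40 in control cells (adjusted p = 0.017), a call lost without control line 1 (0.28, adjusted p = 0.322), without control line 2 (adjusted p = 0.0842), without control DM3 line 1 culture 2 (adjusted p = 0.0617) and with line averages (adjusted p = 0.0796).

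Of the muscle-type isoforms of complex IV, Cox6a2 and Cox7a1 rose in both genotypes. Cox8b passed the filter only through tKO DM3, the group where it was high. Each isoform stayed a small part of its pair. Cox6a2 (ENSMUSG00000030785, chr7:128205436-128206366, minus strand) was at 0.130, 0.612, 0.135 and 0.187 FPKM in control GM, which is 3 to 10 fragments per library against a floor of 3 fragments. In tKO GM it was at 0.256, 0.604, 0.0969 and 1.43 FPKM. In control DM3 it was at 4.78, 6.96, 6.54 and 5.11 FPKM, and in tKO DM3 at 35.5 and 17.1 FPKM in clone 1 and 11.5 and 6.49 FPKM in clone 2. All DM3 libraries lay above all GM libraries. It rose by 2.44 ± 0.35 in control cells (SE, adjusted p = 2.04e-05) and by 3.37 ± 0.35 in tKO cells (adjusted p = 6.92e-07), the largest change of any member in each. As these levels are low, the log2(FPKM + 1) scale understates the fold, and with a pseudocount of 0.1 the changes were 4.18 and 4.81. Of the FPKM of Cox6a2 and its widely expressed counterpart Cox6a1, Cox6a2 made up 0.0882% in control and 0.172% in tKO libraries in GM, and 0.846% and 2.49% in DM3 (means, n = 4).

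Cox7a1 was present before differentiation. It was at 2.44, 3.32, 2.61 and 0.675 FPKM in control GM and 4.39, 13.1, 8.11 and 11.8 FPKM in control DM3. In tKO cells it was at 3.61, 1.21, 5.17 and 3.74 FPKM in GM and 9.41, 12.1, 7.04 and 13.1 FPKM in DM3. The stages did not overlap in either genotype, and the rises were 1.66 ± 0.35 and 1.42 ± 0.35 (SE, adjusted p = 0.000729 and 0.00242). Leaving out control line 2 ended the call in control cells (adjusted p = 0.0712), and leaving out clone 1 ended it in tKO cells (adjusted p = 0.118). Its share of the pair with Cox7a2 was 3.15% and 4.16% in control and tKO GM and 6.84% and 8.31% in DM3. Cox7a2 itself rose by 0.87 and 0.54, the latter lost without clone 1 (adjusted p = 0.0849). In DM3, culture 2 had higher Cox7a1 shares than culture 1 in each of the 4 lines.

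Cox8b was barely detected. Its fragments numbered 0 to 3 in every GM library. In DM3 there were 4, 11, 8 and 11 fragments in control libraries and 59, 9, 15 and 5 in tKO libraries, or 0.289 to 0.897 FPKM and 0.444 to 5.08 FPKM. It rose by 1.25 in tKO cells (adjusted p = 0.00196), and the change of 0.59 in control cells did not pass the test (adjusted p = 0.101). Cox8b passed the filter of 0.5 FPKM only through tKO DM3, where its mean was 1.97 FPKM. Its means were 0.0614 FPKM in control GM, 0.0690 FPKM in tKO GM and 0.604 FPKM in control DM3. The test in tKO cells is therefore not independent of the filter and gives no support for a rise there. Its share of the pair with Cox8a was at most 0.676%, in clone 1 culture 1. That library also had the highest summed myotube markers of the 16.

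**Figure D2:**
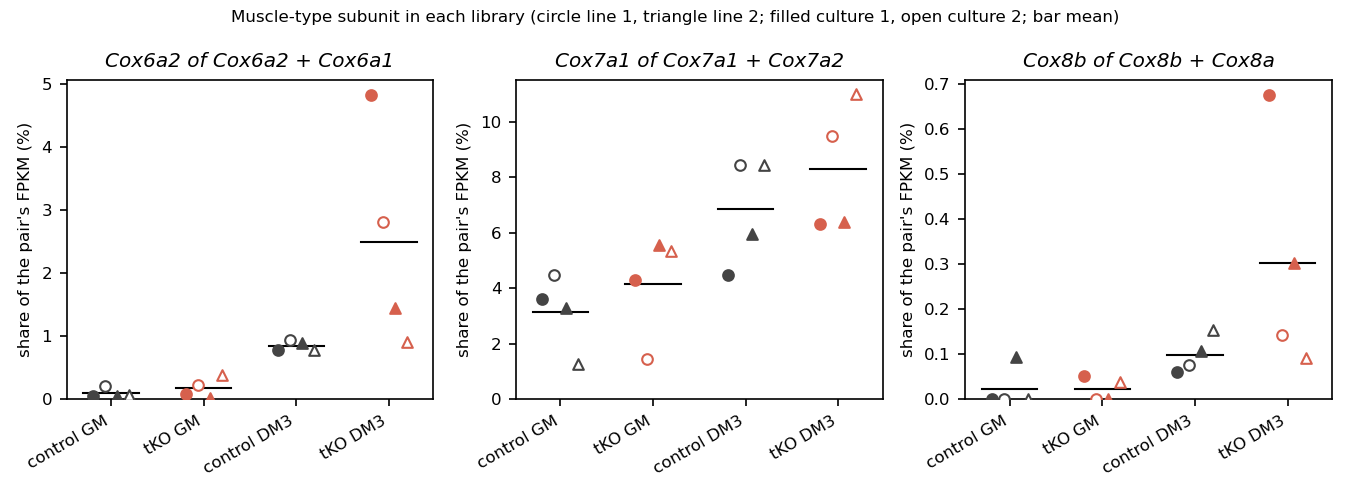
Percent of the pair's FPKM taken by the muscle-type subunit in each of the 16 libraries, by group. Circles are line 1 and triangles line 2, filled symbols culture 1 and open symbols culture 2, and bars group means. Cox6a2 reaches 4.82% in clone 1 culture 1 at DM3, while its control DM3 libraries lie between 0.772% and 0.934%.

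Promoters of both isoforms of a pair are set side by side because the muscle-type and widely expressed genes moved from very different levels. Each run is 250 bases before to 50 after a RefSeq start site (GRCm38.p6), read in the direction of the gene, with motif matches in capitals. The 300 bases were searched on both strands for CAGCTG (a myogenic E-box), AAGGTCA (estrogen-related receptor site), CCGGAAG (ETS), GCGCATG (NRF1 core), AAGATGG (YY1 core) and MEF2 sites.
Cox7a1, chr7:30183921-30184220, plus strand: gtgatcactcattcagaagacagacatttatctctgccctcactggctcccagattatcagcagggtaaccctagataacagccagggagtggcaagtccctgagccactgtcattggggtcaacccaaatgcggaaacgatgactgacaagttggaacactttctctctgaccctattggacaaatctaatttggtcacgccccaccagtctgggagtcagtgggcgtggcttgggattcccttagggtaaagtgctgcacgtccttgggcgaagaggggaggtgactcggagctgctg
Cox7a2, chr9:79759804-79760103, minus strand: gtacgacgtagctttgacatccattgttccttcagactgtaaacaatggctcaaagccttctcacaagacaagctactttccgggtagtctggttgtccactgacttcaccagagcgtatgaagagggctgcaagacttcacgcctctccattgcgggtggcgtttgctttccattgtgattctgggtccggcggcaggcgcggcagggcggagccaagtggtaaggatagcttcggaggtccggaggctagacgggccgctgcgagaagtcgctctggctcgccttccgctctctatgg
Cox8b, chr7:140900397-140900696, minus strand: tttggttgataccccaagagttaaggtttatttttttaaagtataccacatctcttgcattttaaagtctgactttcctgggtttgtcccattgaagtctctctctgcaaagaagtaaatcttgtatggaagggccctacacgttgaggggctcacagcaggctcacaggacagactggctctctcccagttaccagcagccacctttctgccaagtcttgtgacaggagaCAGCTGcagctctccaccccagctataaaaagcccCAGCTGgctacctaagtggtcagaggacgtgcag
Cox8a, chr19:7217567-7217866, minus strand: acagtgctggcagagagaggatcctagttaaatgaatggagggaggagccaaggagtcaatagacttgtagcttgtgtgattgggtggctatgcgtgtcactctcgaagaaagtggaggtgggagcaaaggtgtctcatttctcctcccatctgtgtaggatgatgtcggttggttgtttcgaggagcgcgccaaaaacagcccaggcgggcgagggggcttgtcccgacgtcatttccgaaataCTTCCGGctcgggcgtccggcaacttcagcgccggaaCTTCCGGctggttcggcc
Cox6a1, chr5:115348909-115349208, minus strand: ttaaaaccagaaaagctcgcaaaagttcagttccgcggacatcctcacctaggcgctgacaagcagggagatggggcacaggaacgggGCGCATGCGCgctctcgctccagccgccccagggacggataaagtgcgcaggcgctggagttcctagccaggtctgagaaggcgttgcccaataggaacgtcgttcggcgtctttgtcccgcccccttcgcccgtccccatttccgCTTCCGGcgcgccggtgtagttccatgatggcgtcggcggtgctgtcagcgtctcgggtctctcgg
The Cox8b window held 2 E-boxes, 19 bases before and 16 bases after the start site, and Cox8a held 2 ETS matches. Cox6a1 held an ETS match and an NRF1 core that reads on both strands, so the matches overlap. Neither Cox7a window held any of the motifs. A match is a description of letters, not a bound site, and absence says only that the letters are not in the window. No promoter of Cox6a2 was matched.

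Promoters could be matched for 37 of 48 members (41 windows). An ETS match was in 29.3% of member windows and 8.86% of 32851 windows of all genes, and an NRF1 core in 19.5% and 3.91%. The YY1 core was in 14.6% and 6.34%, and the estrogen-related receptor site in 12.2% and 4.72%. The E-box was in 4.88% and 16.3%, in the member set only in Cox8b and Atp5b, and MEF2 sites in 0% and 1.86%. These are counts of letters without a test. The windows of all genes include genes below the expression filter, and the shares over the tested genes alone were not computed. Among member genes the rise on differentiation was larger in short ones: the median change in control cells was 0.80 in 24 members under 1000 bases and 0.57 in 21 longer ones, beside 0.02 in 1221 tested genes under 1000 bases. In tKO cells these medians were 0.58, 0.29 and -0.13.

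The c subunit, which forms the rotor ring of ATP synthase, comes from 3 genes whose mature proteins are alike and which differ in their import sequences. The most abundant of them was Atp5g3 in all 8 GM libraries and Atp5g2 in all DM3 libraries except tKO clone 1 culture 2 (45.8% against 48.7% of their sum). Atp5g2 was at 210, 273, 283 and 229 FPKM in control GM and 369, 471, 477 and 412 FPKM in control DM3, and rose by 0.80 (adjusted p = 0.000262). Atp5g3 was at 316, 333, 400 and 304 FPKM in control GM and 283, 285, 334 and 273 FPKM in control DM3. It was the one member with a negative change in control cells (-0.20, adjusted p = 0.172), and with median-of-ratios scaling that change was 0.01. In tKO cells Atp5g2 rose by 0.55 (adjusted p = 0.00475), and Atp5g3 fell by 0.53 (adjusted p = 0.00145), from 438, 402, 455 and 373 to 340, 305, 270 and 243 FPKM, without overlap. Without clone 2 neither change in tKO cells passed (adjusted p = 0.0566 and 0.0620).

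As a share of the 3 genes' FPKM, which does not depend on scaling between libraries, Atp5g2 went from 40.1% to 56.8% in control and from 34.6% to 52.3% in tKO libraries (means, n = 4). Atp5g3 went from 54.7% to 38.7% and from 60.1% to 42.7%. No library of one stage overlapped the other stage in either gene's share. Atp5g1 took 4.44% to 5.27% of the sum in the 4 groups. In GM the genotypes did not overlap either, with Atp5g2 at 37.8% to 42.7% in control and 33.4% to 35.5% in tKO libraries, while in DM3 they did. The summed level of the 3 genes was 619 ± 77.4 FPKM in control and 693 ± 58.9 FPKM in tKO libraries in GM, and 759 ± 75.5 and 682 ± 123 FPKM in DM3 (SD, n = 4). Fragments that fit more than 1 of these similar genes, or their processed copies, could have been assigned either way, and the rule used is not given in the sources used here. The small share of Atp5g1 also rests on its listed length of 4715 bases, against 753 and 862 bases for Atp5g2 and Atp5g3. Whether these cells use so long a transcript was not tested. In control GM line 1 culture 1, Atp5g1, Atp5g2 and Atp5g3 had 4886, 5529 and 9535 fragments.

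**Figure D3:**
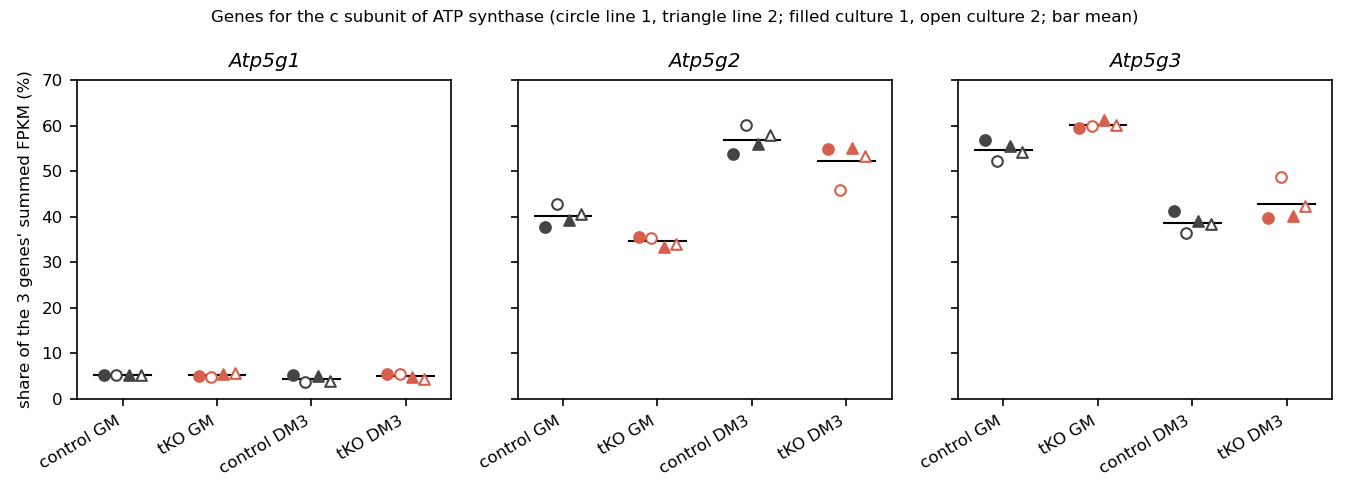
Share of the summed FPKM of Atp5g1, Atp5g2 and Atp5g3 taken by each gene in the 16 libraries. Symbols mark line and culture as printed above the panels, and bars are group means. The Atp5g2 share is 33.4% to 42.7% in GM and 45.8% to 60.02% in DM3, and Atp5g3 runs the other way.

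The promoters of these genes are shown because the stage moved Atp5g2 and Atp5g3 to different sides of each other.
Atp5g2, chr15:102670998-102671297, minus strand: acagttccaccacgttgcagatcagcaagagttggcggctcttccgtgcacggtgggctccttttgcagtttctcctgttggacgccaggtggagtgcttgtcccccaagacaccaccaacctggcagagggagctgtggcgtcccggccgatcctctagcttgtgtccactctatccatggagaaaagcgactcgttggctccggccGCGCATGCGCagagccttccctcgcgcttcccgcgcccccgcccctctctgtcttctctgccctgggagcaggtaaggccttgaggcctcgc
Atp5g3, chr2:73911277-73911576, minus strand: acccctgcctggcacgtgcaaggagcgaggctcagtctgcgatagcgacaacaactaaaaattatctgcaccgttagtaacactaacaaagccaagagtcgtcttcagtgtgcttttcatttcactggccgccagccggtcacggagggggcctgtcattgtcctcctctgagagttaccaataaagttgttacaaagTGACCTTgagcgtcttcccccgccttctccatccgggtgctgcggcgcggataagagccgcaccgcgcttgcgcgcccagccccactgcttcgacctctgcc
The capitals are an NRF1 core on both strands in Atp5g2, starting 42 bases before the start site. In Atp5g3 they are an estrogen-related receptor site that starts 52 bases before it.

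In the main fit, which has no block for culture number, no member differed between tKO and control cells at the threshold used, in either stage. With such a block some members passed, as given in the last paragraph. In GM 0 of 45 passed the limma test (0.549% of all tested genes were higher and 1.51% lower), and 7 had an unadjusted p under 0.05. The differences leaned upward: 36 of 45 were positive, with a median of 0.18 beside -0.01 over all tested genes. The 1221 tested genes under 1000 bases had a median of 0.12, and 24 members are that short (median 0.20). The part of gene length in this lean was not tested. Complex III was positive in 9 of 9 members and complex IV in 14 of 15. Within cultures 1 and 2 the members' medians were 0.21 and 0.12. All 4 tKO libraries lay above all 4 control libraries in 3 members and below in 0, against 5.38% and 8.62% of all tested genes.

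The smallest p in GM belonged to Sdha, which went the other way. It was at 127, 118, 121 and 102 FPKM in control GM and 91.8, 77.9, 105 and 90.8 FPKM in tKO GM. Only the highest tKO library reached into the control range. The difference was -0.36 ± 0.10 (SE, adjusted p = 0.0788), and it passed without clone 2 (-0.46, adjusted p = 0.0238). Uqcr10, a small subunit of complex III, was at 86.5, 111, 128 and 93.9 FPKM in control and 149, 131, 167 and 139 FPKM in tKO GM. Its groups did not overlap, and the difference was 0.49 (adjusted p = 0.104). Atp5a1, at 323 to 358 FPKM in control and 388 to 514 FPKM in tKO GM, also had no overlap (0.36, adjusted p = 0.158). Cox7b differed by 0.38 and Cox8a by 0.45 (adjusted p = 0.138 and 0.168), both with overlap. Without clone 2, Atp5a1 and Cox8a passed, at 0.52 and 0.57 (adjusted p = 0.0199 and 0.0466). Fits without clone 2 set cultures of a single clone against control and hold no spread between clones.

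In DM3 again 0 of 45 members passed the limma test (2.02% of all tested genes were higher and 1.36% lower), and 7 had an unadjusted p under 0.05. Here 35 of 45 differences were negative, with a median of -0.11 beside 0.01 over all tested genes and -0.05 over those under 1000 bases. Without clone 2, 25 of 45 were positive and the median was 0.02. Without the single library clone 1 culture 1, 38 were negative and the median was -0.18. The direction also differed by culture, with a median of 0.01 and 24 positive in culture 1 and a median of -0.20 and 39 negative in culture 2. Both clones lay below both control lines in 6 members in culture 1, against 22.6% of all tested genes. In culture 2 they did so in 25 members, against 24.0%. Culture 2 is where the tKO libraries had the low summed myotube markers given above. The part of this in the difference was not tested. All tKO libraries lay above all control libraries in 0 members and below in 2, against 4.22% and 4.30% of all tested genes.

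Cox6a2 had the smallest p in DM3. The values given above put 3 of 4 tKO libraries above the control range of 4.78 to 6.96 FPKM and clone 2 culture 2 inside it. The difference was 1.22 ± 0.35 (SE, adjusted p = 0.0743). It passed when clone 2 culture 2 was left out (1.57, adjusted p = 0.0114) or clone 2 altogether (1.92, adjusted p = 0.00074), and the range of adjusted p over all alternatives was 0.00074 to 0.623. The fit without clone 2 holds no spread between clones. Cox8b differed by 0.67 (adjusted p = 0.273). Both of these muscle-type genes were highest in clone 1 culture 1, as were 39 of 45 members in that group.

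Uqcrfs1 was at 107, 101, 101 and 89.0 FPKM in control DM3 and 88.0, 72.3, 73.4 and 68.4 FPKM in tKO DM3. The groups did not overlap, and the difference was -0.39 ± 0.13 (SE, adjusted p = 0.111). It was -0.37 and -0.42 within cultures 1 and 2, and in each culture the highest clone lay below the lowest control line. It passed without clone 1 culture 1 (-0.47, adjusted p = 0.0418). Sdha lay below every control DM3 library, at 106 to 122 FPKM against 127 to 136 FPKM (-0.22, adjusted p = 0.284). The membrane anchors Sdhc and Sdhd differed by -0.23 and -0.26 (adjusted p = 0.224 and 0.244). In both stages and both cultures, Sdha was lower in both clones than in both control lines. Taken culture by culture, this held for 23.2% and 33.3% of all tested genes in GM and for 22.6% and 24.0% in DM3. The share of genes for which it held throughout was not computed.

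**Figure D4:**
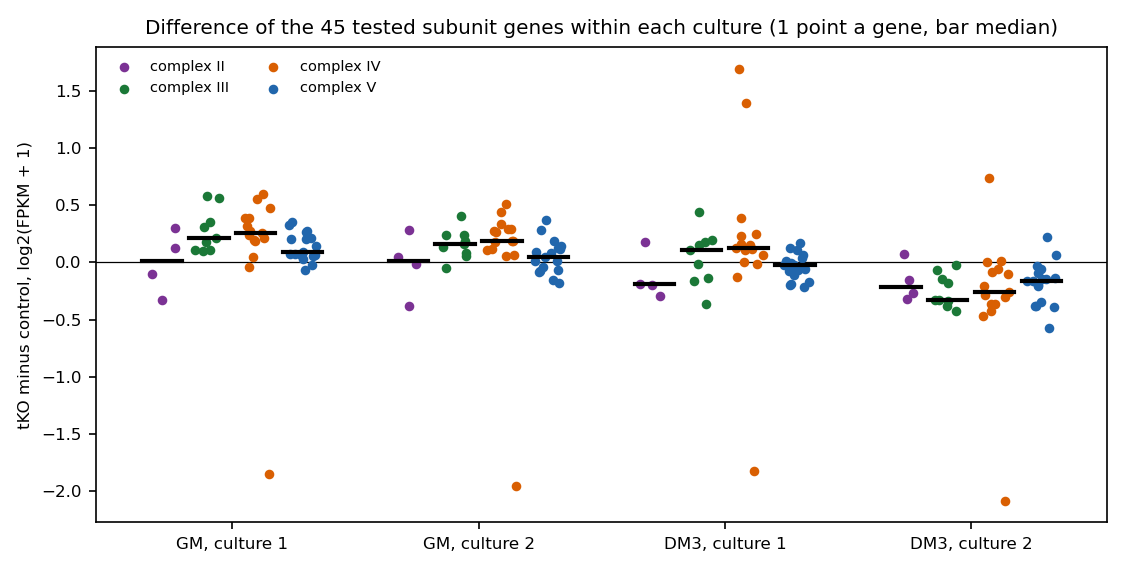
Difference between the 2 tKO clones and the 2 control lines within each culture, in log2(FPKM + 1), 1 point for each of the 45 tested members, coloured by complex, with the median as a bar. Medians over all members are 0.21 and 0.12 in GM, 0.01 in DM3 culture 1 and -0.20 in DM3 culture 2. The lowest point in each column is Cox7b2, and the highest in both DM3 columns is Cox6a2.

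The interaction asks whether the change on differentiation differed between genotypes. It was negative in 42 of 45 members, with a median of -0.24 beside 0.03 over all tested genes and -0.16 over the 1221 tested genes under 1000 bases, and 0 members passed the limma test (0.203% of all tested genes were higher and 0.0507% lower), while 8 had an unadjusted p under 0.05. Complexes III and V were negative in 9 of 9 and 17 of 17 members. The largest negative values were -0.58 for Uqcr10 and -0.57 for Uqcrfs1 (adjusted p = 0.324 and 0.253). The 3 positive members were Sdha (0.13), Cox8b (0.66) and Cox6a2 (0.93), and none passed (adjusted p = 0.763, 0.597 and 0.519). Without clone 2 the median was -0.15, with 12 members positive, and with TPM scaling 7 were positive.

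Cox7b2 was almost absent from clone 1. This gene is a paralogue of Cox7b (ENSMUSG00000049387, chr5:71442824-71548205, minus strand). In control cells it was at 15.3, 18.6, 18.2 and 16.0 FPKM in GM and 13.2, 19.5, 17.9 and 21.3 FPKM in DM3. Clone 2 had 23.1 and 21.2 FPKM in GM and 18.2 and 20.3 FPKM in DM3. Clone 1 had 0 and 0 fragments in GM and 2 and 3 fragments in DM3, while the other 12 libraries had 251 to 597. Clone 2 was at least 90.6-fold higher than clone 1 in GM and at least 100.1-fold higher in DM3, against a floor of 3 fragments per library. As the clones share a genotype, tKO against control gave -1.90 and -1.95 with wide errors (SE 1.09, adjusted p = 0.389 and 0.382), and without clone 1 it gave 0.36 and 0.11.

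Between the clones, with stage as a covariate, Cox7b2 was the 1 of 45 members that passed the limma test (log2 difference 4.33, adjusted p = 1.72e-06), where 1.05% of all tested genes passed. Between the control lines 0 members and 0% of all tested genes passed (0 members and 104 of 11832 genes had an unadjusted p under 0.05). This comparison was added after the values were seen. The nearest tested genes on either side on chromosome 5 were present in clone 1. They are far off, as Gnpda2 ends at chr5:69592337 and Commd8 starts at chr5:72157000. Whether DNA at or around Cox7b2 is missing in clone 1 was not tested. Commd8 was at 7.55 FPKM in clone 1 and 10.7 to 11.5 FPKM in the other 3 lines (clone 2 against clone 1, adjusted p = 0.0916), and Gnpda2 was at 1.00 FPKM in clone 1 and 0.712 to 0.883 FPKM in the others. Cox7b was at 116, 94.3, 226 and 175 FPKM in clone 1 and at 146, 108, 209 and 203 FPKM in clone 2, in the order of GM and DM3 cultures.

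**Figure D5:**
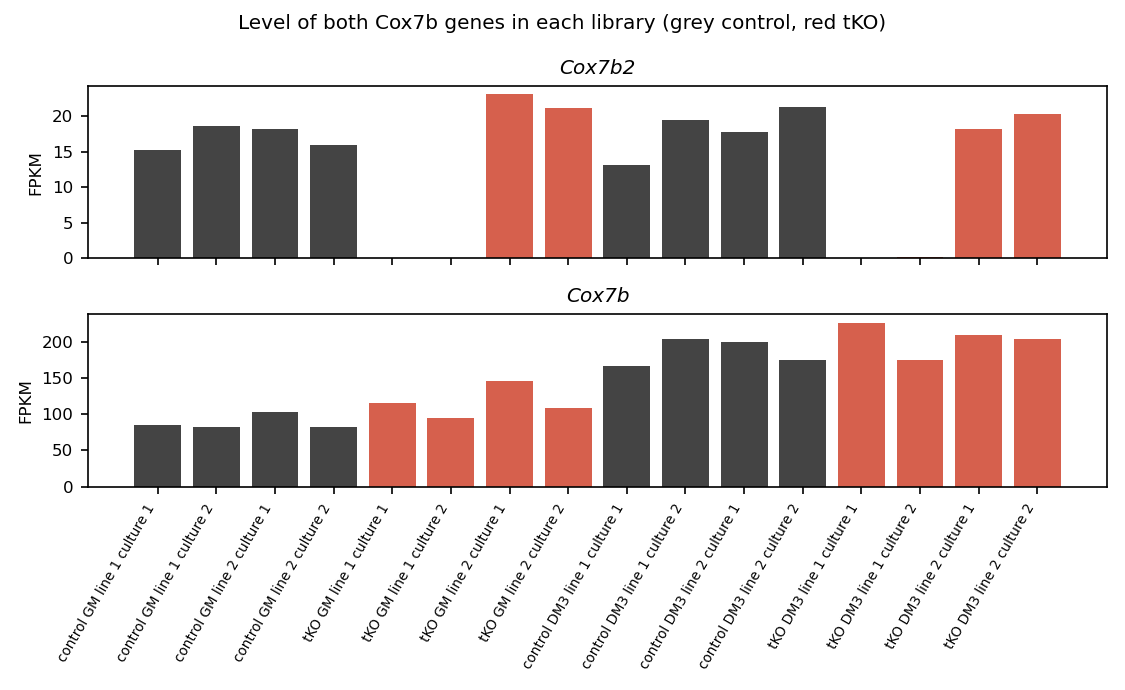
FPKM of Cox7b2 (top) and Cox7b (bottom) in each library, with control libraries in grey and tKO libraries in red. Cox7b2 has no visible bar in the 4 clone 1 libraries and 13.2 to 23.1 FPKM in the other 12, while Cox7b is present in all 16.

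Within groups the members varied together. Control GM line 2 culture 1 was the highest of its group in 39 of 45 members, where 23.9% of all tested genes were highest in that library. Control GM line 2 culture 2 was the lowest in 33 of 45, against 24.4%. In tKO DM3, clone 1 culture 1 was the highest in 39 of 45 members, against 23.2% of all tested genes. Its members lay 0.29 (median, log2) above their group means, while all genes there lay 0.11 below. This library had the lowest summed proliferation markers of its group (67.1 FPKM, against 118.5 to 150.5 FPKM). With it left out, 24 members rose and 3 fell on differentiation in tKO cells, and 2 were lower in tKO than in control DM3. Without control GM line 2 culture 1, 34 members rose in control cells.

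The genes that build the complexes moved in both directions on differentiation. Of 16 tested assembly factors of complex IV, 2 rose and 3 fell in control cells, where 23.2% of all tested genes rose and 38.3% fell. The summed level of the 20 listed factors was 225 to 247 FPKM in control GM and 302 to 401 FPKM in control DM3, without overlap. The sum rose by about as much as Cox14 alone, so it does not describe the factors as a set. Cox14 went from 53.5 to 178 FPKM and Surf1 from 14.7 to 32.1 FPKM (means, rises of 1.70 and 1.07), while Coa7 fell by 1.39, Cox10, which makes heme O, by 0.87, and Sco1, a copper chaperone, by 0.69. In tKO cells 2 rose and 6 fell, where 24.9% of all tested genes rose and 36.0% fell. The same shares stand beside the counts for the other complexes that follow. Of 5 factors of complex III, 2 rose in control cells, Bcs1l, which inserts the Rieske protein, by 0.45 and Lyrm7 by 0.39. In tKO cells 1 rose and 1 fell. Of the 3 factors of complex V, Tmem70 rose by 0.78 and Atpaf1 and Atpaf2, chaperones of the F1 head, fell by 0.60 and 0.69 in control cells. In tKO cells 0 rose and 2 fell. The tested factor of complex II, Sdhaf2, changed by -0.22 in control cells (adjusted p = 0.0730) and fell by 0.44 in tKO cells. None of these factors passed in either genotype comparison.

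Partners outside the name rule moved in part with the subunits. Of 5, 3 rose and 1 fell in control cells, beside 23.2% and 38.3% of all tested genes. In tKO cells 2 rose and 1 fell, beside 24.9% and 36.0%. Usmg5 and 2010107E04Rik, small proteins of ATP synthase, rose by 0.87 and 0.89 in control cells, and Ndufa4, a complex IV subunit, rose by 0.39. Cycs, the cytochrome c that carries electrons from complex III to IV, fell by 0.39 in control cells and 0.60 in tKO cells. Among the 6 regulators, Esrra rose (0.89 and 0.66), and Nrf1, Gabpa and Tfam fell in both genotypes. Ppargc1a, a coactivator of mitochondrial genes, changed by 0.62 in control cells (adjusted p = 0.0817) and rose by 0.71 in tKO cells (adjusted p = 0.0489).

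Of the 6 mitochondrially encoded subunits of complexes III to V, 1 rose and 1 fell in each genotype. Of all tested genes, 23.2% rose and 38.3% fell in control cells, and 24.9% and 36.0% in tKO cells. mt-Co1 rose by 0.87 and 0.84, and mt-Cytb fell by 1.99 and 1.08. Between genotypes none passed, and the difference of mt-Cytb in DM3 was 1.04 (adjusted p = 0.15). All 6 differences between tKO and control were positive in GM (median 0.13) and in DM3 (median 0.46), where most nuclear members were negative. The summed level of the 6 was 8585 to 10679 FPKM in control DM3 and 6240 to 13809 FPKM in tKO DM3. Clone 1 culture 1 was lowest, and the other tKO DM3 libraries were at 12106 FPKM or more.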

How the data were processed

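Gene-level FPKM of 16 libraries were used as deposited by the authors. Per the submitters' processing notes, STAR, DESeq and build mm10 were used; versions, strand handling and the treatment of fragments that match several genes are not given in the sources used here. Fragment numbers were recovered from FPKM, gene length and the step that 1 fragment makes: all values came out whole within 0.02, with totals of 22642563 to 56585952 fragments. A level of 3 fragments was taken as the floor; it covers counting error only.

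Values were analysed as log2(FPKM + 1) with limma 3.58.1 in R 4.3.3 (4 group means, trend and robust variance) over 11832 genes with a mean of at least 0.5 FPKM, with Benjamini-Hochberg adjustment and a threshold of 0.05. The procedure was tested on simulated data. Since the labels do not say that cultures were independent, p-values measure only the spread between these libraries. The members, gene lists and tests were chosen with earlier results of these data known. Genes named in the text were members of the isoform families, the 5 largest changes past the threshold (or the 5 smallest p where fewer than 3 passed), each complex's highest, lowest and most raised member, members against the common direction, the Sdh genes and the core genes of complex III; other names were added after their values were seen. Alternatives were another pseudocount (0.1), filter (none or 5 FPKM), scaling (median of ratios, TPM), a replicate block, only the compared libraries, line averages, and leaving out each library or line. Promoters and microRNAs came from RefSeq and 3′ UTRs from GENCODE M21.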

Additional observations from a re-analysis of the deposited data

Results flagged for a closer look

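Of 132 sets of 4 libraries (the named members above the filter, in each group), 11 held a library far from the other 3, by Dixon's criterion. Chance flags about 1 set in 20. In tKO DM3, clone 1 culture 1 stood high for Atp5e (133 FPKM), Cox6c (104 FPKM), Cox7a2l (266 FPKM) and Uqcrq (189 FPKM). In control GM, line 2 culture 1 stood high for Cox7b (102 FPKM), Cox8a (265 FPKM) and Cox8b (0.246 FPKM, the only control GM library with any fragment). Cox6a2 stood high in control GM line 1 culture 2 (0.612 FPKM), and Cox6b1 stood low in tKO GM clone 2 culture 2 (139 FPKM). In control DM3, Sdha stood high in line 1 culture 1 (136 FPKM) and Sdhb in line 2 culture 1 (113 FPKM).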

How the results depend on the processing

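Among values of single named genes, 627 of the results under other settings kept their direction and their side of the threshold, 10 lost the threshold and 5 gained it. With 1 library or line left out, 1239 kept both, 50 lost it, 9 gained it and 2 reversed. The reversed values were those of Cox7b2 without clone 1, 0.36 in GM and 0.11 in DM3; without clone 2 they were -4.17 and -4.02. With TPM scaling 1 member fell in control cells, and with median-of-ratios scaling or only the compared libraries 1 fell in tKO cells. With a library or line left out, the members that rose numbered 24 to 34 in control cells and 18 to 31 in tKO cells, and those that fell in tKO cells 0 to 3. The members higher in tKO numbered 0 to 3 in GM and 0 to 1 in DM3, those lower 0 to 2 in each, and the positive interactions 0 to 1. The cause was not tested, except that fewer libraries entered those fits and that a fit without a line holds a single line of that genotype. Low fragment counts limit Cox6a2 and Cox7a1 in GM and Cox8b in both stages.

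The culture number does not pair the libraries by its labels, and libraries of the same stage and number correlated across genotypes at 0.0955 to 0.452 in GM and -0.224 to 0.558 in DM3 (8 pairs each). With it as a replicate block, 1 member was lower in tKO DM3 (Uqcrfs1, limma adjusted p = 0.0197) and 3 fell in tKO cells. A block of culture number within each stage, chosen after seeing the data, gave 1 member lower in GM (Sdha), 1 higher in DM3 (Cox6a2), 1 lower in DM3 and 1 negative interaction (both Uqcrfs1).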
